A study of Mus musculus with 4 samples.

Results

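The genes described here encode the subunits, activators, inhibitor and assembly factors of the proteasome, measured by RNA sequencing in 4 libraries of IL-4-stimulated mouse macrophages. They were taken by symbol, as every gene named Psma to Psmg with a number, leaving out the inducible Psmb8, Psmb9 and Psmb10. The rule took 54 genes in the RefSeq table, of which 6 are pseudogenes listed in no library (Psma5-ps, Psmb5-ps, Psmb6-ps, Psmb6-ps2, Psmb7-ps1 and Psmb7-ps2) and 48 were listed among 15114 Entrez-numbered genes. There were 16 core genes (Psma and Psmb), 21 cap genes (Psmc and Psmd) and 11 others (Psme, Psmf and Psmg). A mean of at least 1 FPKM was reached by 47, among 9501 genes that did so, while Psmb11, the thymus form of a core subunit, stayed between 0.21 and 0.30 FPKM. By name the rule also took Psmc3ip, a meiotic recombination factor, and Psme3ip1, a protein named for binding Psme3. Neither is a proteasome subunit.

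The study concerned PERK, a kinase of the unfolded protein response that Eif2ak3 encodes. All 4 libraries came from C57BL/6 mice with floxed Eif2ak3 alleles (Eif2ak3 fl/fl). The 2 wild-type libraries had no other allele named, and the 2 knockout libraries (LysMcre x Eif2ak3 fl/fl) also carried LysMcre, a recombinase driven from the lysozyme locus of myeloid cells. Marrow cells had been grown with M-CSF at 20 ng/mL for 7 days and then given IL-4 at 20 ng/mL for 24 h. The labels give no age of the mice, nor whether the 2 libraries of a genotype came from separate animals or cultures, so p-values measure only the spread between these libraries. Unstimulated cells are not analysed here.

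The proteasome degrades proteins that carry ubiquitin chains. Its core is a barrel of stacked rings, in which outer alpha subunits gate the entry and inner beta subunits Psmb5, Psmb6 and Psmb7 cut the substrate. A cap on the barrel, with a ring of Psmc ATPases and a set of Psmd subunits, binds, unfolds and deubiquitinates substrates. Subunits are used in fixed proportion, and in mammalian cells under proteasome inhibition the transcription factor Nfe2l1 raises their genes together. Interferons exchange the cutting subunits for Psmb8, Psmb9 and Psmb10 and induce the activator subunits Psme1 and Psme2, which matters for antigen presentation by macrophages.

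Values are FPKM, fragments scaled to feature length and library, as the authors deposited them, so levels of different genes are compared per length. The median tested gene had a log2 change, knockout minus wild type, of -0.14 as deposited and of -0.01 after median-ratio scaling, which divides each library by its typical ratio to the others. Log2 changes below are fitted differences on the log2(FPKM + 1) scale, given with their intervals relative to that median gene whether or not they passed a test. They understate changes of weakly listed genes. Limma tests and their p-values are on the deposited values unless scaling is named. They therefore test each change before that of the median gene is subtracted. Knockout replicate 2 stands apart, with 41.1% of its FPKM on Entrez-numbered genes against 54.8% to 59.0% in the other libraries, and with 29618 features found in no other library. Relative depth was read from the commonest ratios between libraries of the low values of features without an Entrez number, on the assumption that these hold whole fragments. It came to 0.901 and 0.801 times that of wild-type replicate 1 for wild-type replicate 2 and knockout replicate 1. For knockout replicate 2 it was not settled: a search over ratios of 1 and 2 gave 1.21 times, and a wider search, adopted after that value was seen, gave 0.607 times. Eif2ak3 measured 10.9 and 8.88 FPKM (wild type) and 6.55 and 4.88 FPKM (knockout). Both knockout libraries lay under the wild-type range, and the log2 difference was -0.56 with a standard error of 0.18 (limma unadjusted p = 0.00682, adjusted p = 0.776). The macrophage genes Adgre1, Csf1r, Cd68, Itgam, Mertk and Lyz2 summed to 1388.5 to 2294 FPKM. Lyz2, the lysozyme gene from which LysMcre is driven, gave 627 and 699 FPKM of this (wild type) and 253 and 201 FPKM (knockout). In contrast, marker lists of neutrophils, dendritic cells, T cells, B cells, erythroid cells and fibroblasts each summed to at most 3.11 FPKM, with Elane, Trac, Hbb-bs and Hba-a1 listed in no library. In bulk RNA, fewer cells of a type and less RNA per cell cannot be told apart.

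Across the proteasome, the subunits of core and cap kept close to the median gene, and the members furthest from it were Psma1 below and the activator genes Psme1 and Psme2 above. The median change was -0.02 for 15 tested core genes, -0.02 for 21 cap genes and +0.06 for 11 others, beside 0 for all tested genes by construction. Limma called 0 of 47 members at an adjusted p of 0.05, against 0.0211% of all tested genes. At an unadjusted p under 0.05 there was 1 member lower, Psma1, and 0 higher, against 3.52% of all tested genes lower and 0.705% higher (4.22% in both directions). After median-ratio scaling Psma1 was again the 1 member at that p, beside 1.4% of all tested genes lower and 1.65% higher (3.06% in both directions). As deposited, 16 members had both knockout libraries below both wild-type libraries and 0 had them above, against 35.6% and 4.14% of all tested genes. After median-ratio scaling 6 had them below and 4 above, against 15.3% and 14%. Within 0.1 of the median gene on the log2 scale, a factor of 1.07 and a width chosen after the values were seen, lay 12 of 15 core genes (80%), 17 of 21 cap genes (81%) and 5 of 11 others (45.5%), against 50.3% of all tested genes. Among tested genes with a mean of 20 to 200 FPKM, 57.5% did. After median-ratio scaling the counts of members were again 12, 17 and 5, against 51% of all tested genes. The standard errors of single members ranged from 0.14 to 0.26, so a change of this width could not be told from 0 for any of them.

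**Figure D1:**
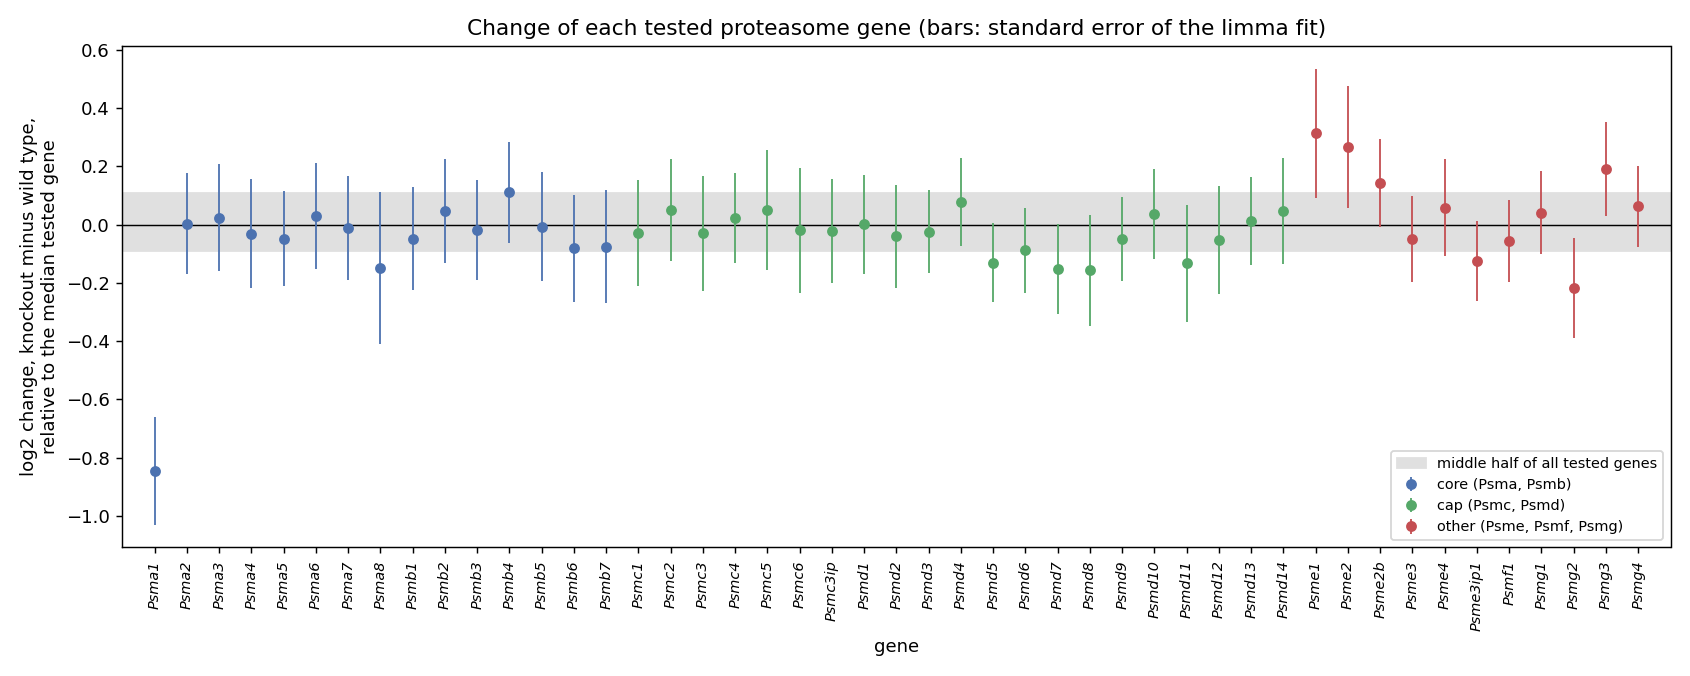
Log2 change of each of the 47 tested genes, knockout minus wild type, relative to the median tested gene, with bars of 1 standard error from the limma fit (n = 2 libraries per genotype). The grey band, -0.09 to 0.11, is the interquartile range of all tested genes, and Psma1 at -0.85 and Psme1 at 0.31 are the lowest and highest members.

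Levels differed far more between subunits than between libraries. Of the alpha ring, which gates the barrel, the 6 genes Psma2 to Psma7 had means of 31.5 FPKM (Psma3) to 79.3 FPKM (Psma4). Psma4, the most abundant, measured 84.1 and 83.3 FPKM (wild type) and 84.9 and 64.9 FPKM (knockout). Knockout replicate 1 was slightly above the wild-type libraries there, and knockout replicate 2 lay below all others, as it did for all 6 genes. Psma5 measured 47.9 and 56.1 FPKM (wild type) and 47.8 and 43.1 FPKM (knockout), a change of -0.05 (SE 0.16, limma adjusted p = 0.776). For Psma5 the groups touched without overlapping. The changes of Psma2 to Psma7 ran from -0.05 to +0.03. The testis form Psma8 measured 1.17 and 1.40 FPKM (wild type) and 1.27 and 0.54 FPKM (knockout), near the filter of 1 FPKM.

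Psma1 (Entrez 26440, chromosome 7, 114264550 to 114276116 on GRCm38), an obligate alpha-ring subunit, was listed far below its ring partners. It measured 4.79 and 3.89 FPKM (wild type) and 1.48 and 1.91 FPKM (knockout). The genotypes did not overlap, and knockout replicate 1 was the lowest library. Its fitted difference was -0.85 (SE 0.18, 95% interval -1.29 to -0.41), with an unadjusted limma p of 0.00127 and an adjusted p of 0.776. Leaving out a library gave -0.66 to -1.04. As a ratio to the median core subunit, the levels were 0.0752 and 0.0565 in wild type and 0.0217 and 0.0353 in knockout. No transcript of another gene in GENCODE M21 matched its longest protein-coding transcript at 90% identity over 50% of the length. Whether fragments of Psma1 were counted to a feature without an Entrez number was not tested.

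**Figure D2:**
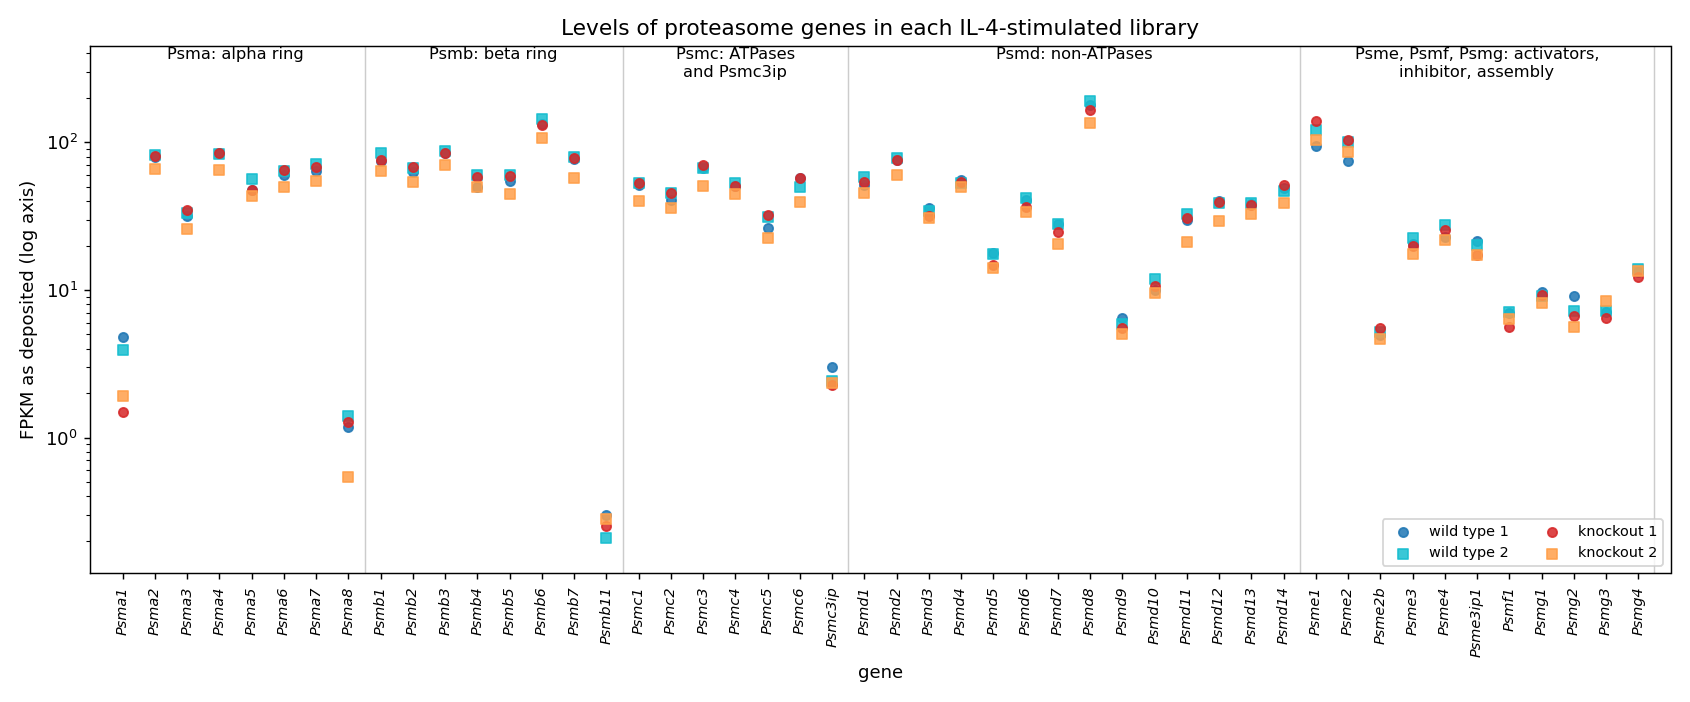
FPKM as deposited, on a log axis, of all 48 listed genes in each of the 4 libraries. Most core and cap genes lie between 20 and 200 FPKM with the 4 libraries close together and knockout replicate 2 lowest, while Psma1 lies at 1.48 to 4.79 FPKM.

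In the beta ring, the cutting subunits were expressed at high and unequal levels. Psmb6, the caspase-like subunit and the most abundant core gene, measured 133 and 143 FPKM (wild type) and 130.1 and 107 FPKM (knockout). Psmb7, the trypsin-like subunit, measured 76.6 and 79.2 FPKM against 77.7 and 57.6 FPKM. Psmb5, the chymotrypsin-like subunit and target of bortezomib, measured 54.8 and 59.95 FPKM against 59.6 and 44.8 FPKM. Of these, the groups overlapped for Psmb5 and Psmb7 but not for Psmb6, and knockout replicate 2 was the lowest library for each. The changes of Psmb6, Psmb7 and Psmb5 were -0.08, -0.08 and -0.01, with 95% intervals of -0.52 to 0.36, -0.54 to 0.39 and -0.46 to 0.44 (limma adjusted p = 0.776, 0.776 and 0.801). All 3 intervals span 0 and reach falls and rises of more than 0.3 on the log2 scale.

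The structural beta subunits Psmb1 to Psmb4 had means of 54.6 FPKM (Psmb4) to 81.6 FPKM (Psmb3). Psmb1 measured 74.2 and 85.1 FPKM (wild type) and 76.1 and 63.6 FPKM (knockout). Psmb4 measured 50.2 and 60.2 FPKM against 57.9 and 50.01 FPKM, and its change of +0.11 was the highest of the core. Both sets of values overlapped. Summed over the 13 core subunits other than Psma1 and the testis and thymus forms, FPKM was 905 and 970 in wild type and 936 and 752 in knockout.

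The start regions of Psmb5 and Psmb6 are shown because they hold a match to the core letters of the antioxidant response element, TGACNNNGC, the sequence through which Nfe2l1 and Nfe2l2 act. Capitals mark the match. They run 5′ to 3′ on the gene's strand from 250 bases before a RefSeq start to 50 bases after it, on GRCm38.p6, at chr14:54617946-54618245 on the minus strand for Psmb5 and chr11:70525107-70525406 on the plus strand for Psmb6.
Psmb5: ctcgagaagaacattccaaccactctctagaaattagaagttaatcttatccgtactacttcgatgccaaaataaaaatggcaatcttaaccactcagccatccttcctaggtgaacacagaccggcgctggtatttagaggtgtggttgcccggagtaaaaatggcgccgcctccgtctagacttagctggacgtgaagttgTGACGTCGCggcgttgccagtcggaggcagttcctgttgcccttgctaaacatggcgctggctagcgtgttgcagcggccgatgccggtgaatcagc
Psmb6: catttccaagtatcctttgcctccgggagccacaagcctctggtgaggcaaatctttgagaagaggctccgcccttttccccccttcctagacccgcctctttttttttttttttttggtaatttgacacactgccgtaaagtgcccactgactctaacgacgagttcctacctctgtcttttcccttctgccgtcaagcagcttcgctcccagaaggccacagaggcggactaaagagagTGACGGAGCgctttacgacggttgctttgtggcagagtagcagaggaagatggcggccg
The matches begin 47 and 9 bases before the start. On either strand, the letters were found in 6 of 40 members with such a window (Psmb5, Psmb6, Psmc6, Psmd9, Psmd12 and Psme4), or 13.6% of their 44 windows, against 12.4% of all 32851 RefSeq windows.

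The ATPase ring of the cap, which unfolds substrates, had changes close to those of the median gene. Psmc1 to Psmc6 had means of 28.0 FPKM (Psmc5) to 63.6 FPKM (Psmc3), and all 6 changes lay between -0.03 and +0.05. Psmc3 measured 67.3 and 66.6 FPKM (wild type) and 70.0 and 50.4 FPKM (knockout). Psmc1 measured 51.3 and 53.1 FPKM against 53.2 and 40.3 FPKM. For both genes knockout replicate 1 was the highest library and knockout replicate 2 the lowest, so that the groups overlapped. Without knockout replicate 2 the changes of Psmc3 and Psmc1 were +0.12 and +0.08, and without knockout replicate 1 they were -0.19 and -0.15. Psmc3ip, not a subunit, measured 3.01 and 2.40 FPKM against 2.26 and 2.34 FPKM.

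Among the non-ATPase genes of the cap, the 8 lid subunits had a median change of -0.07, with 6 below the median gene and 5 with both knockout libraries below both wild-type libraries. As deposited, 35.6% of all tested genes had that order, so 5 of 8 is to be read against a high background. Among the 2255 tested genes with a mean of 20 to 200 FPKM, 1338 lay below the median gene. Psmd8, a lid subunit and the most abundant gene of the whole set, measured 179.7 and 191 FPKM (wild type) and 167 and 136 FPKM (knockout). Its fitted difference was -0.16 (SE 0.19), at an adjusted limma p of 0.776. Psmd7, the lid partner of the deubiquitinase, measured 27.9 and 27.9 FPKM against 24.8 and 20.5 FPKM, a change of -0.15 (SE 0.16, limma adjusted p = 0.776). After median-ratio scaling 4 of the 21 cap genes had both knockout libraries below both wild-type libraries: these 2, Psmd6 and the chaperone gene Psmd5. Over all 47 members 6 had that order, against 15.3% of all tested genes. The other lid subunits Psmd3, Psmd11, Psmd12 and Psmd13 had changes of -0.13 to +0.01.

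The deubiquitinase Psmd14 and Psmd4, a ubiquitin receptor of the cap, lay slightly above the median gene. Their difference from the lid genes was not tested. Psmd14, the lid metalloprotease that removes ubiquitin chains from substrates, measured 48.9 and 46.9 FPKM (wild type) and 51.4 and 39.1 FPKM (knockout), a change of +0.05 (95% interval -0.39 to 0.48) that became -0.07 without knockout replicate 1. Psmd4, which binds ubiquitin chains, measured 55.6 and 53.2 FPKM against 54.0 and 50.2 FPKM, a change of +0.08 (95% interval -0.28 to 0.44). Both had overlapping groups as deposited. After median-ratio scaling Psmd4 was 1 of 4 among the 47 members with both knockout libraries above both wild-type libraries, against 14% of all tested genes. The base scaffolds Psmd1 and Psmd2 had changes of 0.00 and -0.04.

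Chaperones that assemble the base were less abundant than the subunits they serve, at means of 5.75 FPKM (Psmd9) to 15.99 FPKM (Psmd5). Psmd5 measured 17.7 and 17.5 FPKM (wild type) and 14.7 and 14.1 FPKM (knockout). The genotypes lay further apart than the libraries within each. The change was -0.13 (SE 0.14), with a limma p of 0.0873 unadjusted and 0.776 adjusted. Psmd9 measured 6.46 and 5.92 FPKM against 5.56 and 5.05 FPKM.

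The balance of cap to core was read within each library, where scaling cancels. The cap median was taken over the Psmc and Psmd genes without Psmc3ip, so it includes the low chaperones Psmd5, Psmd9 and Psmd10. By this measure, the ratio to the median core subunit was 0.639 and 0.634 in wild type and 0.623 and 0.642 in knockout. The ratio over the cap subunits of the assembled particle alone was not computed. Over the 31 core and cap subunits of the assembled particle, knockout replicate 2 was the lowest library for 30, Psma1 being the exception, against 5794 of all 9501 tested genes. After median-ratio scaling it was the lowest for 20 of the 31, against 2806 of all tested genes. The median deviation of a gene from its own mean in knockout replicate 2 was then -0.09 over 15 core genes, -0.14 over 6 ATPases, -0.11 over 8 lid subunits and -0.05 over Psmd1, Psmd2 and Psmd4. For 4 of the 6 ATPases knockout replicate 2 was still the lowest library. The ATPases deviated by +0.12 in knockout replicate 1 and by -0.03 and +0.03 in wild type. The part of the low share of Entrez-numbered FPKM in this was not tested.

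**Figure D3:**
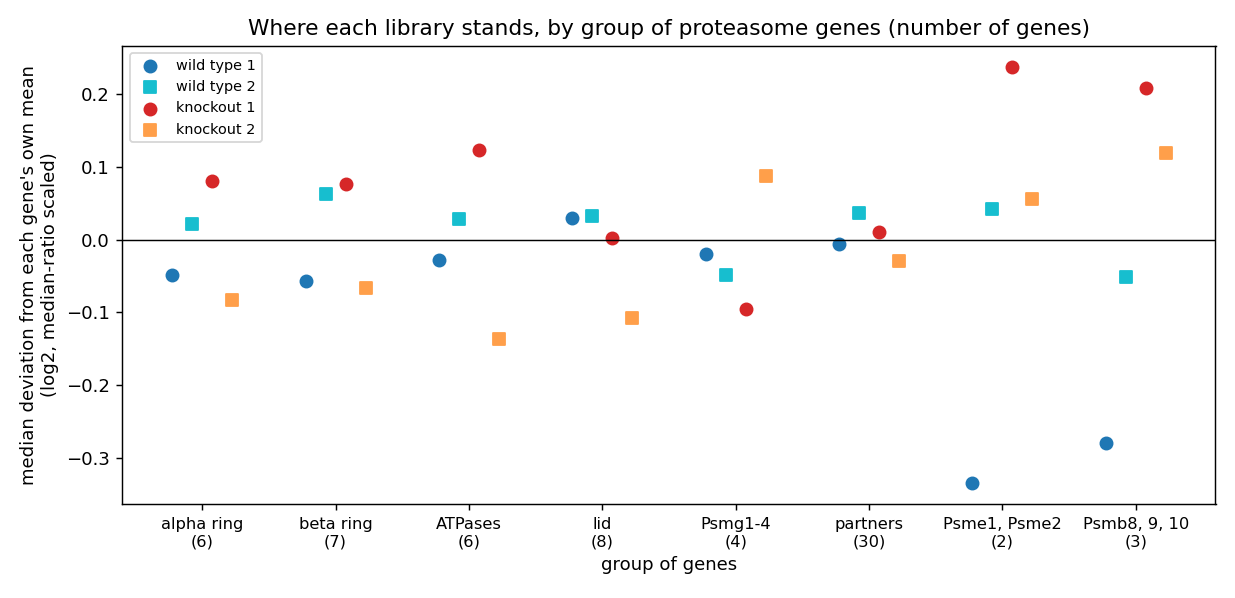
Median deviation of each group of genes from the genes' own means over the 4 libraries, on the log2 scale after median-ratio scaling, by library. Core, ATPase and lid groups have knockout replicate 2 lowest (-0.07 to -0.14), whereas Psme1 with Psme2 and Psmb8 to Psmb10 have wild-type replicate 1 lowest (-0.34 and -0.28) and knockout replicate 1 highest.

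Among the activators, Psme1 and Psme2, the alpha and beta subunits of the interferon-induced ring that opens the core, lay above the median gene, whereas the nuclear Psme3 and the large activator Psme4 lay near it. Psme1 (Entrez 19186, on chromosome 14 from 55578494 to 55581527 of GRCm38) had 94.7 and 120.5 FPKM (wild type) and 140.3 and 104 FPKM (knockout). Psme2 (Entrez 19188, on chromosome 14 from 55587440 to 55591101) had 74.4 and 100.2 FPKM against 103.5 and 85.9 FPKM. As deposited the groups overlapped for both genes, with wild-type replicate 1 the lowest library and knockout replicate 1 the highest. Their changes were +0.31 (SE 0.22) and +0.27 (SE 0.21), with limma adjusted p-values of 0.802 and 0.841. After median-ratio scaling both knockout libraries lay above both wild-type libraries for 4 of the 47 members, against 14% of all tested genes. These were Psme1, Psme2, Psme2b and the cap gene Psmd4. Without wild-type replicate 1 the changes of Psme1 and Psme2 were +0.14 and +0.05. Without wild-type replicate 2 they were +0.48 and +0.47, and without knockout replicate 1 the change of Psme1 was +0.17. Psme2b, a copy of Psme2 with 99.4% identity to it, measured 4.96 and 5.15 FPKM against 5.54 and 4.63 FPKM, and fragments of the 2 genes may not have been told apart. Psme3ip1, not a subunit, measured 21.6 and 20.2 FPKM against 17.2 and 17.3 FPKM.

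Psme3 measured 20.6 and 22.4 FPKM (wild type) and 19.9 and 17.6 FPKM (knockout), a change of -0.05 (95% interval -0.40 to 0.30). Psme4 measured 22.8 and 27.4 FPKM against 25.6 and 21.7 FPKM, a change of +0.06 (95% interval -0.34 to 0.46). Relative to the median core subunit of the same library, Psme1 stood at 1.49 and 1.75 in wild type and 2.06 and 1.92 in knockout, and Psme2 at 1.17 and 1.46 against 1.52 and 1.59. The median core subunit itself was lowest in knockout replicate 2, at 54.0 FPKM against 63.7 to 68.8 FPKM in the other libraries. For Psme1 and Psme2 the ratios did not overlap between the genotypes. Each had a two-sided exact permutation p of 0.333, the smallest that 2 against 2 libraries allow. How often such a ratio to the median core subunit separates the genotypes over all genes was not tested. The same ratio overlapped for Psme3, at 0.324 and 0.326 against 0.292 and 0.325, and for Psme4, at 0.358 and 0.398 against 0.376 and 0.401. The wild-type libraries differed from each other in the Psme2 ratio by more than wild-type replicate 2 differed from either knockout library.

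The start regions of Psme1 and Psme2, neighbours on chromosome 14, are shown because these 2 genes had the highest changes of the set. Capitals mark a match to the letters of the interferon-stimulated response element, GAAA repeated after a gap of any 2 bases. They run 5′ to 3′ on the gene's strand over the same span as above, on GRCm38.p6, at chr14:55578244-55578543 on the plus strand for Psme1 and chr14:55591052-55591351 on the minus strand for Psme2.
Psme1: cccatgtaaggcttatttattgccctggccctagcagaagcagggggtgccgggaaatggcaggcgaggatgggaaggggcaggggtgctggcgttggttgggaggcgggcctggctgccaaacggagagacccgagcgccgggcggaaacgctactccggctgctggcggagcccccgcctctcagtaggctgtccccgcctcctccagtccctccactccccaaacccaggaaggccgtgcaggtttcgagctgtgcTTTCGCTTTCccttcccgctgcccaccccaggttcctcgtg
Psme2: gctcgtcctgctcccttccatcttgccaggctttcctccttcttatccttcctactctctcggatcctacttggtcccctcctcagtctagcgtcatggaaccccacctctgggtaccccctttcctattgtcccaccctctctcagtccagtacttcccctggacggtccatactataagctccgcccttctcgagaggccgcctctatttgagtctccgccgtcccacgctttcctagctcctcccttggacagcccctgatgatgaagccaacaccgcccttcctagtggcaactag
Psme1 holds the letters on its opposite strand beginning at base 10 when the start is base 1, and the Psme2 window holds none. On either strand they were found in 5 of the 40 members with a window (Psmb3, Psmd4, Psmd9, Psme1 and Psmg4), or 11.4% of windows, against 3.44% of all RefSeq windows, and in none of Psmb8, Psmb9 and Psmb10. The 5 members that hold them had changes of -0.02 (Psmb3), +0.08 (Psmd4), -0.05 (Psmd9), +0.31 (Psme1) and +0.06 (Psmg4).

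The inducible cutting subunits, set beside their constitutive partners, had values like those of Psme1 and Psme2. Within a library, the ratio of Psmb8 to Psmb5 was 0.805 and 0.869 in wild type and 1.01 and 1.12 in knockout. The ratio of Psmb10 to Psmb7 was 0.603 and 0.629 against 0.750 and 0.823, and that of Psmb9 to Psmb6 was 0.105 and 0.134 against 0.167 and 0.169. Neither genotype overlapped the other in any of the 3 ratios. Each ratio had a two-sided exact permutation p of 0.333, unaltered by Benjamini-Hochberg adjustment over the 3. That is the smallest p that 2 against 2 libraries allow. The denominators Psmb5, Psmb6 and Psmb7 were each lowest in knockout replicate 2. How often ratios between other genes separate the genotypes was not tested. As genes, Psmb8, Psmb9 and Psmb10 had changes of +0.33, +0.40 and +0.27 (limma adjusted p = 0.776, 0.776 and 0.804). Psmb8 measured 44.13 and 52.1 FPKM (wild type) and 59.87 and 50.03 FPKM (knockout). Psmb9 measured 14.03 and 19.1 FPKM against 21.76 and 18.15 FPKM, and Psmb10 46.14 and 49.85 FPKM against 58.27 and 47.38 FPKM. As deposited the groups overlapped for all 3 genes, with knockout replicate 2 below wild-type replicate 2. After median-ratio scaling both knockout libraries lay above both wild-type libraries for all 3, against 14% of all tested genes. Beside them, a list of 15 interferon-response genes, chosen after their values were seen and all lowest in wild-type replicate 1, summed to 117 and 324 FPKM (wild type) and 361 and 333 FPKM (knockout), and their part in these ratios was not tested. Without wild-type replicate 1, Psmb9 had a change of +0.19 and Psmb8 one of +0.21.

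**Figure D4:**
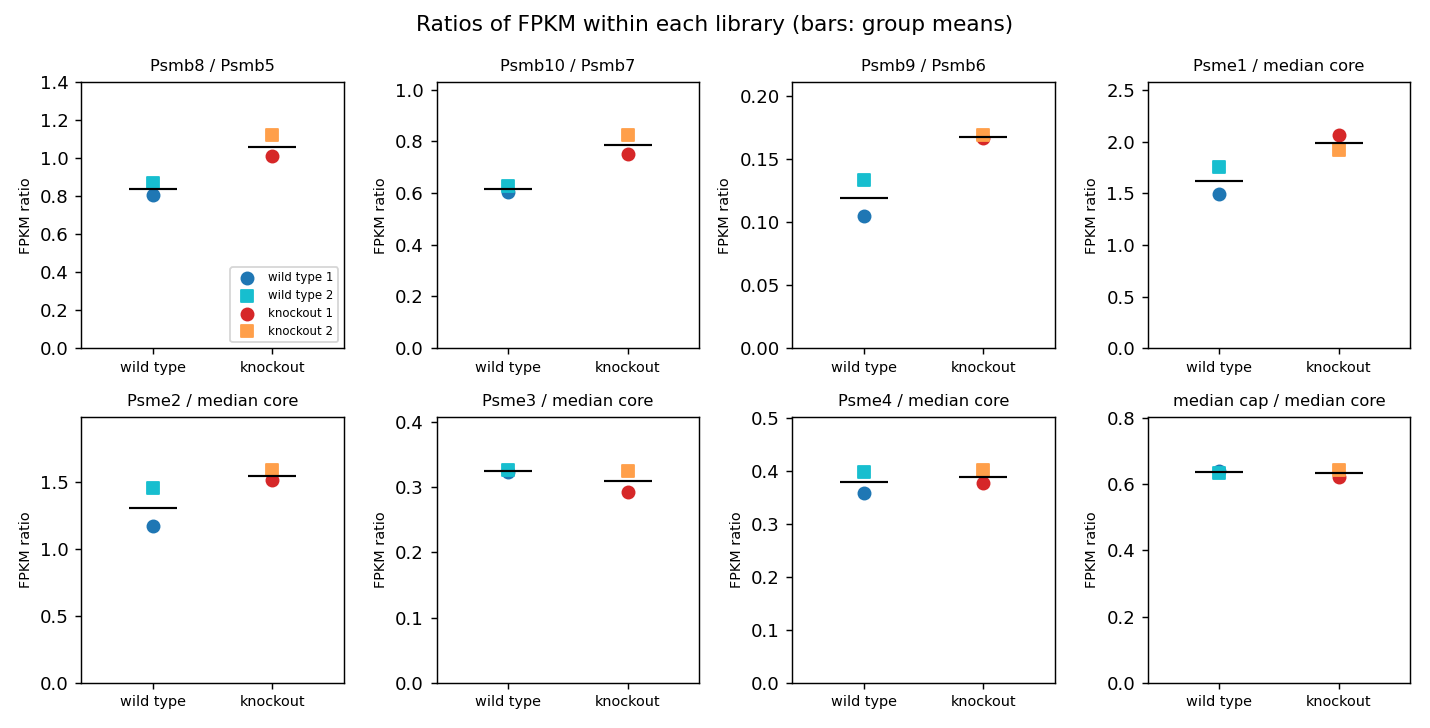
Ratios of FPKM between genes of the same library, by genotype, with black lines at the means of the 2 libraries and each axis starting at 0. The 3 ratios of inducible to constitutive cutting subunits and the ratios of Psme1 and Psme2 to the median core subunit are higher in both knockout libraries, while those of Psme3, Psme4 and the cap overlap. How often such ratios separate the genotypes over all genes was not tested.

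The inhibitor and the core assembly chaperones were low beside most core and cap genes, while the median mean over all tested genes was 9.17 FPKM. Psmf1, which binds the core and inhibits it in vitro, measured 6.98 and 7.07 FPKM (wild type) and 5.63 and 6.40 FPKM (knockout), a change of -0.06 (SE 0.14, limma adjusted p = 0.776). Psmg1 to Psmg4, which assemble the alpha ring, had means of 7.15 FPKM (Psmg2) to 13.1 FPKM (Psmg4). Psmg2 measured 9.16 and 7.17 FPKM against 6.67 and 5.59 FPKM, with no overlap. Its change of -0.22 (SE 0.17) was the lowest after Psma1, with a limma p of 0.0756 unadjusted and 0.776 adjusted. Its partner Psmg1 measured 9.65 and 9.16 FPKM against 9.30 and 8.16 FPKM. Psmg3 measured 7.05 and 7.16 FPKM against 6.49 and 8.41 FPKM, and Psmg4 13.2 and 13.9 FPKM against 12.2 and 13.4 FPKM. The changes of Psmg1, Psmg3 and Psmg4 were +0.04, +0.19 and +0.06. Without wild-type replicate 1 that of Psmg2 was -0.06, and without knockout replicate 2 that of Psmg3 was -0.06.

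Other genes of the pathway without a Psm symbol were described by a list of 31, of which 30 were tested and Paaf1 was listed in no library. Limma called 0 of the 30, beside 0.0211% of all tested genes. At an unadjusted limma p under 0.05 there were 0, beside 4.22% of all tested genes. The median change was -0.02, with 20 below the median gene and 10 above. Of the 2255 tested genes with a mean of 20 to 200 FPKM, 1338 lay below it and 917 above. As deposited, 16 of the 30 had both knockout libraries below both wild-type libraries, beside 35.6% of all tested genes, while 0 had them above, beside 4.14%. After median-ratio scaling 3 had them below and 5 above, beside 15.3% and 14%. Nfe2l1 and Nfe2l2, the transcription factors that act on antioxidant response elements, were 2 of the 3 below, with Txnl1. Nfe2l1 measured 42.6 and 40.7 FPKM (wild type) and 34.8 and 30.3 FPKM (knockout), a change of -0.21 (SE 0.15, limma adjusted p = 0.776). Nfe2l2 measured 56.8 and 55.4 FPKM against 45.7 and 42.6 FPKM, a change of -0.20 (SE 0.15, limma adjusted p = 0.776). Both genes stayed below the median gene without any single library, at -0.18 to -0.25.

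The remaining partners are subunits and helpers of the particle itself. Sem1, the small lid subunit, measured 165 and 171 FPKM (wild type) and 162 and 137 FPKM (knockout). Pomp, the maturation factor of the core, measured 88.8 and 87.7 FPKM against 89.0 and 71.8 FPKM. Knockout replicate 2 was the lowest library for both, as for 27 of the 30 tested partners and 5794 of all 9501 tested genes. The groups overlapped for Pomp but not for Sem1. Adrm1, a ubiquitin receptor of the base, measured 23.6 and 28.4 FPKM against 23.7 and 22.4 FPKM. The cap's cysteine deubiquitinases were Usp14, at 28.7 and 27.1 FPKM against 27.6 and 23.1 FPKM, and Uchl5, at 17.9 and 16.98 FPKM against 16.6 and 11.8 FPKM. The changes of Sem1, Pomp, Adrm1, Usp14 and Uchl5 were -0.03, 0.00, -0.02, 0.00 and -0.16. At 90% identity or more over at least 50% of the transcript, another gene matched 12 of 47 members with a protein-coding transcript (Psma4, Psma5, Psmb3, Psmb5, Psmb6, Psmc1, Psmd2, Psmd11, Psmd14, Psme1, Psme2 and Psme2b). On GENCODE M21, 21 members overlapped another annotated gene, 16 of them one on the opposite strand and 4 of them a protein-coding gene on the same strand (Psma2, Psmd1, Psme2b and Psmg3). Fragments of such pairs may have been shared, because the way they were counted is not given in the sources used here.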

How the data were processed

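The libraries were depleted of ribosomal RNA, stranded and randomly primed, per the labels' protocols. The deposited values are FPKM, given to 2 decimals in 1 table per library; HISAT, StringTie, Bowtie2, RSEM and the build mm10 appear in the submitters' processing notes, without versions or roles. Annotation and strand setting are not given in the sources used here. A gene missing from a table was taken as 0. Of 15114 Entrez numbers, 15094 matched RefSeq symbols (GRCm38.p6). The files hold no counts; relative depth was read from the commonest ratios of low values of unnamed features between libraries, assuming whole fragments, and no counting interval can be given.

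Entrez genes averaging 1 FPKM or more were transformed to log2(FPKM + 1) and fitted with limma 3.58.1 in R 4.3.3 (mean-variance trend, two-sided, no block, Benjamini-Hochberg over all 9501 genes, threshold 0.05). The procedure was tested on simulated data. Similar transcripts of other genes were searched with BLAST 2.17.0 (at least 90% identity over at least 50% of the transcript). Ratios within a library were compared by exact permutation.

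The members and lists were chosen with earlier results of these data known, and the interferon list after their values were seen. Described in full were fixed members (cutting subunits, Psmd4, Psmd14, Psme1 to Psme4, Psmf1, Psmg1 to Psmg4) and partners, and in each of Psma, Psmb, Psmc and Psmd the 3 genes of smallest p, the most and the least abundant. Other members are given in counts or ranges, and those also named, such as Psmd6 and Psme2b, were chosen after their values were seen. Alternatives covered scaling, pseudocount (0.1), filter (none, or a mean of 5), genes listed in all 4 libraries, a replicate block and leaving out each library.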

Additional observations from a re-analysis of the deposited data

How the results depend on the processing

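The count of proteasome genes past the limma threshold was 0 under every alternative run. Over all genes the count of 2 became 0 with only genes listed in all 4 libraries and 14 with a replicate block, and 2 to 44 when a library was left out (44 without wild-type replicate 2). Members at an unadjusted limma p under 0.05 numbered 1 of 47 as reported, beside 4.22% of all tested genes. They numbered 3 of 48 with no filter on low values, beside 4.54%. With a minimum mean of 5 FPKM, which removes Psma1, they numbered 0 of 44, beside 4.32%. With the block they numbered 2 of 47 (Psma1 and Psmg2), beside 6.92%. Leaving out a library gave 1 to 8, with 8 lower without knockout replicate 1, when 12.2% of all tested genes were under that p. With no filter the median change of cap and other members was -0.105 and -0.0232, because the median of all genes then includes those near 0. Leaving out a library moved the medians of core, cap and other members over -0.101 to 0.0631, -0.072 to 0.0417 and -0.0466 to 0.0981. Psma1 was below the median gene in all 11 alternatives that tested it (-0.656 to -1.15), and Psme1 and Psme2 above it in all 12 (0.139 to 0.476 and 0.0523 to 0.470). Core, cap and other members with both knockout libraries below both wild-type libraries numbered 4, 8 and 4 as deposited, beside 35.6% of all tested genes, and 1, 4 and 1 after median-ratio scaling, beside 15.3%. They numbered 11, 13 and 6 without wild-type replicate 1, beside 54.6%, and 15, 21 and 7 without knockout replicate 1, beside 69.7%. Replicate numbers do not pair the libraries by any label, and the differences between replicates 1 and 2 of the 2 genotypes correlated at 0.0774 across 9501 genes. With 2 libraries per genotype, standard errors of 0.135 to 0.261 limit what could be detected.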
